A study of Auxenochlorella pyrenoidosa with 8 samples.

Results

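In a unicellular green alga moved from added CO2 to plain air, 207 of 10283 genes met level and rise thresholds at 4 h. By the means of 2 libraries a time, 72 of these kept at least 50% of their 4 h log2 ratio to 0 h at 24 h. In 29 of the 72 each 24 h library reached this mark alone. These 72 genes are described here. They were chosen from the measured values themselves. The mean of the 4 h libraries had to be at least 10 RPKM (read counts divided by gene length in kilobases and by library depth). The log2 ratio of the 4 h mean to the 0 h mean, with 1 RPKM added to each, had to be at least 1. The same log2 ratio at 24 h had to reach at least 50% of that at 4 h. On the RPKM scale a member could still fall far, as g4709 did, from a mean of 2652 at 4 h to 211 at 24 h. The first conditions were met by 207 genes, and the last one set the 72 held genes apart from 135 that had receded further by 24 h, called receding genes below. Every level at 0 h, 4 h and 24 h therefore chose the members, and these levels are given as description. Tests between these times, given further below, covered all tested genes, and their counts of members describe the choice.

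The cells were Auxenochlorella pyrenoidosa (Chlorella pyrenoidosa), strain FACHB-9. They grew in light as autotrophs on 5% CO2 for 5 days, and the culture was then bubbled with plain air. RNA was taken at 0 h (still on 5% CO2, n = 2), and after 1 h (n = 2), 4 h (n = 2) and 24 h (n = 2) in air, from a pair of independent experiments. No culture kept on 5% CO2 was sampled alongside, so CO2 supply and time in culture cannot be told apart.

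Green algae take up inorganic carbon through a carbon-concentrating mechanism, in which bicarbonate transporters and carbonic anhydrases raise the CO2 level around Rubisco, the enzyme that fixes it. In the related alga Chlamydomonas many genes of this mechanism are switched on when CO2 falls, within hours of the change. Photorespiration, which recovers carbon lost when Rubisco takes O2 in place of CO2, is also known to respond to such a shift. Gene numbers stand without names or products in the files, so no member could be placed in either pathway. The genes are given by number, gene model and position on the authors' scaffolds, of an assembly whose name was not given in the sources used here.

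Between 16706278 and 35463138 reads per library were assigned to genes. All 72 members passed the filter of a mean of 1 RPKM over the 8 libraries, which 9326 of the 10283 genes passed. The rule alone guarantees this, since a 4 h mean of 10 RPKM is a mean of at least 2.5 RPKM over all libraries. The authors' RPKM divides by the full gene span, introns included, so levels of different genes are not set against each other per transcript length. An RPKM value is also a share of its library, so more RNA of a gene per cell and less RNA of other genes cannot be told apart. Across all genes the 1 h and 24 h libraries did not pair by label. On the log2 scale 24 h library 1 correlated at r = 0.994 with 1 h library 2 and at 0.951 with 24 h library 2, and 24 h library 2 correlated at 0.985 with 1 h library 1. These are descriptions over genes that share depth and normalization. Whether time labels were exchanged between 1 h and 24 h libraries, or library numbers within a time, was not tested. Times are given as labelled, and every 1 h and 24 h value, and the word held, depends on those labels. Values are therefore given library by library.

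At 4 h all 72 members had both libraries above both 0 h libraries, as had 21% of all tested genes, and at 24 h this held for 55 of the 72, where 11.9% of all tested genes did. The rule used both contrasts, so nothing is read from these counts. The log2 ratio of the 4 h mean to the 0 h mean ranged from 1.01 to 7.54 with a median of 1.20, and that of the 24 h mean ranged from 0.57 to 4.16 with a median of 0.97. Most members had moderate ratios: 13 stood at 4-fold or more at 4 h on this scale and 8 at 16-fold or more. At 24 h, 34 were at 2-fold or more and 16 at 4-fold or more. The 24 h log2 ratio was a median of 69.9% of the 4 h ratio, with quartiles of 57.5% and 83.6%.

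**Figure D1:**
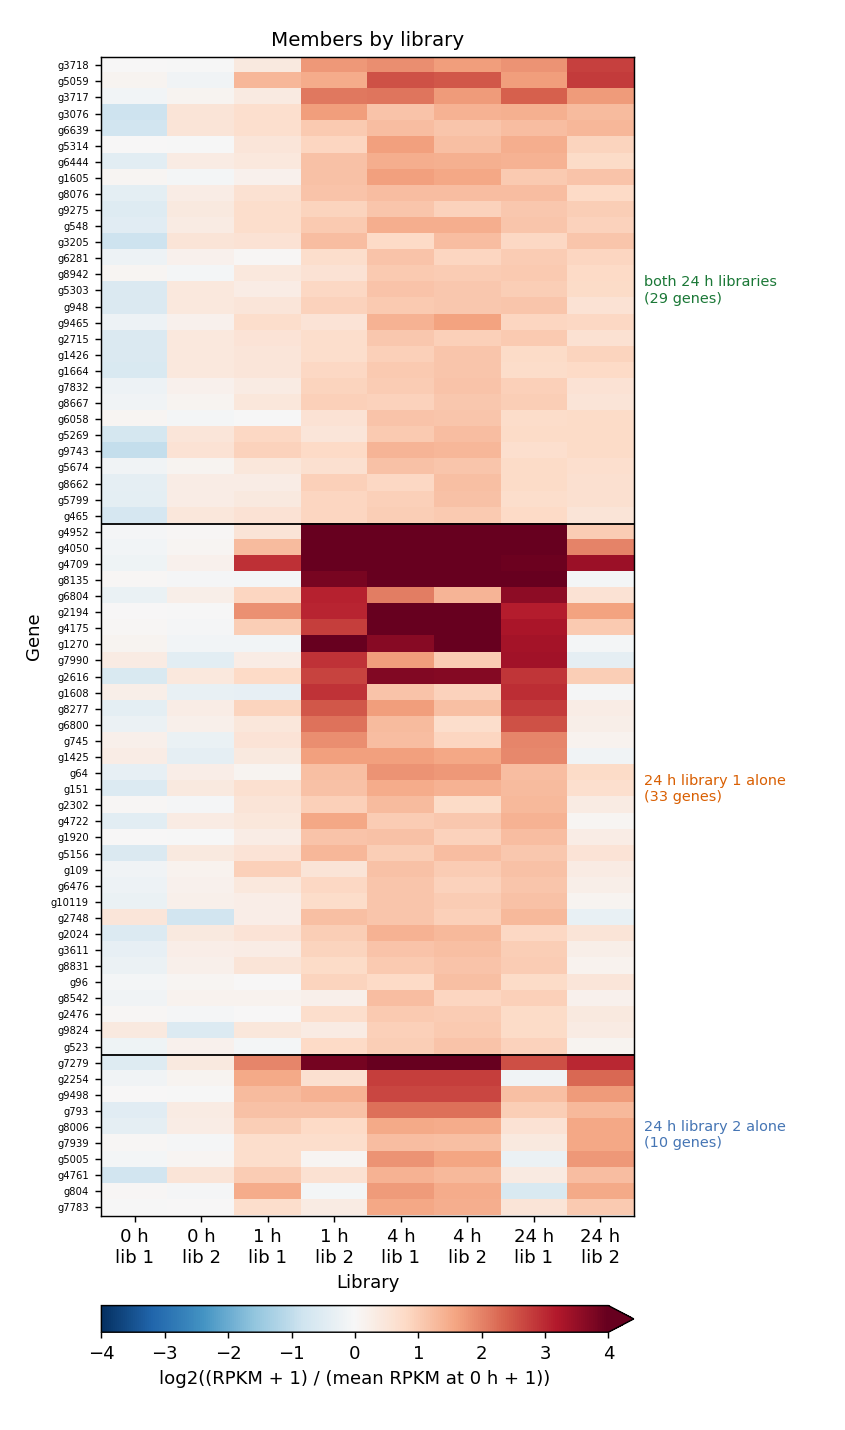
Each row is 1 of the 72 members and each column 1 of the 8 libraries. Colour gives the log2 ratio of RPKM + 1 to the 0 h mean + 1, with values above 4 drawn in the darkest red. Rows are grouped by the 24 h library in which the gene reached 50% of its 4 h log2 ratio (29, 33 and 10 genes), and the middle block is dark in 1 h library 2 and 24 h library 1 but pale in 1 h library 1 and 24 h library 2.

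The thresholds were crossed narrowly in places. The member with the lowest 4 h level was g1426, at 10.1 RPKM, and the next gene outside, g5726, had 8.96 RPKM. On the size of the rise, g8667 stood just inside at a log2 ratio of 1.01 (15.4 to 32.0 RPKM), and g5522 stood just outside at 1.00 (57.4 to 116 RPKM). On the share held at 24 h, g7279 was just inside at 50.2% and g4629 just outside at 49.5%. Just 4 genes missed the level threshold alone, while 135 missed the share alone and 2189 missed the size alone. The last count sets no floor on the 4 h ratio, so it also takes in genes that were lower at 4 h than at 0 h.

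Membership rested on the mean of 24 h libraries that differed from each other. Taken alone, 24 h library 1 reached 50% of the 4 h log2 ratio in 62 of the 72 members, and 24 h library 2 did so in 39. In 29 members both libraries did, in 33 members library 1 alone did, and in 10 members library 2 alone did. The gap between the 24 h libraries, as an absolute log2 difference, had a median of 0.59 over the members and 0.31 over all tested genes, while the gap at 4 h had a median of 0.13 and 0.12. At 24 h library 1 exceeded library 2 by 2-fold or more in 17 members, beside 3.29% of all tested genes, and library 2 exceeded library 1 by that much in 5, beside 4.84%. Every 24 h mean below, with its SD, carries this gap.

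The 29 members held in both 24 h libraries formed the even part of the list. In all 29 both 24 h libraries lay above both 0 h libraries, beside 11.9% of all tested genes. Being held in each library sets both well above the 0 h mean, so nothing is read from this count. The median log2 ratio of the 29 to the 0 h mean was 1.03 in 24 h library 1 and 0.80 in library 2, beside 1.14 and 1.17 in the 4 h libraries. Just 1 of them stood at 4-fold or more at 4 h, g5059 (6 coding exons, coding length 531 bp, plus strand of scaffold00704, 42906 to 45920), named after its values were seen. It had 28.2 and 23.5 RPKM at 0 h, then 66.9 and 73.5 at 1 h, 156.8 and 149.8 at 4 h, with 85.0 and 185.6 at 24 h. Every later library of g5059 lay well above 0 h, and its 24 h libraries lay on either side of those at 4 h. The 0 h libraries of this group were less even: in 17 of the 29, library 2 was more than 1.5 times library 1, and the 0 h mean enters each ratio.

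The gene g6639, singled out after its values were seen, was the 1 member whose 24 h libraries both exceeded its 4 h libraries. It has 8 coding exons and a coding length of 1089 bp on the minus strand of scaffold00961 (370711 to 373664). Its level was 25.7 and 63.5 RPKM at 0 h, then 72.4 and 93.5 at 1 h, 105.7 and 97.5 at 4 h, with 106.9 and 113.3 at 24 h. The libraries at 4 h and 24 h lay close together, and the 0 h libraries were the lowest but differed from each other by more than the later ones did. The ratio of the 24 h mean to the 0 h mean was 2.47.

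The gene g6058 showed the closest agreement at 24 h among the named members. It has 4 coding exons and a coding length of 555 bp on the plus strand of scaffold00891 (95736 to 98070). It had 7.26 and 6.30 RPKM at 0 h, then 6.67 and 10.6 at 1 h, 16.2 and 15.9 at 4 h, with 12.1 and 12.2 at 24 h. It was also among the lowest members at 1 h relative to 0 h: 1 h library 1 lay within its 0 h range, and the clear rise came at 4 h.

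Held members also included neighbouring genes. The genes g3717 (6 coding exons, coding length 621 bp, scaffold00514, 18166 to 20132) and g3718 (6 coding exons, coding length 1206 bp, 20586 to 25949) lie on the plus strand with 453 bp between them. The level of g3717 was 6.79 and 8.03 RPKM at 0 h, then 9.83 and 35.5 at 1 h, 35.7 and 26.6 at 4 h, with 43.5 and 26.7 at 24 h. The level of g3718 was 3.30 and 3.17 RPKM at 0 h, then 4.50 and 13.0 at 1 h, 14.4 and 12.5 at 4 h, with 13.8 and 27.5 at 24 h. Both genes had a higher mean at 24 h than at 4 h, and both were well above 0 h in each of their 4 h and 24 h libraries. They differed in which 24 h library was the higher: library 1 for g3717 and library 2 for g3718. Gene models this close may share reads at their ends, and a strand setting of the counting was not given in the sources used here.

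Also adjacent were g1425 and g1426, on the minus strand of scaffold00128 with 1336 bp between them. The gene g1425 (23 coding exons, coding length 2631 bp, 326700 to 336107) had 13.6 and 8.21 RPKM at 0 h, then 14.6 and 36.0 at 1 h, 36.4 and 33.9 at 4 h, with 43.8 and 9.90 at 24 h. Its 24 h library 2 lay inside its 0 h range. The gene g1426 (14 coding exons, coding length 1614 bp, 337444 to 343997) had 2.62 and 6.25 RPKM at 0 h, then 6.55 and 7.89 at 1 h, 9.48 and 10.8 at 4 h, with 8.24 and 8.98 at 24 h. By their means these neighbours held like shares of the 4 h log2 ratio at 24 h, 76.5% in g1425 and 79.7% in g1426. They differed by library: g1426 was held in both 24 h libraries and g1425 in library 1 alone.

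The 33 members held in 24 h library 1 alone included the largest changes. In 13 of them, 24 h library 2 was no higher than the highest 0 h library. In 31 of the 33, 1 h library 2 was higher than 1 h library 1, as in 60 of all 72 members and 86 of the 135 receding genes. A crossed order, with 1 library number higher at 1 h and the other at 24 h, was not particular to this group. It was found in 58 of the 72 members (80.6%) and in 110 of the 135 receding genes (81.5%). The share of all tested genes with either order is not given here, so these counts are not read as a trait of the members. The median log2 ratio of the 33 was 1.32 in 1 h library 2 and 1.29 in 24 h library 1, but 0.45 in 1 h library 1 and 0.31 in 24 h library 2. In the 4 h libraries it was 1.25 and 1.20.

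The members with the largest ratios at both 4 h and 24 h, g4952 and g4050, belonged to this group. The gene g4952 had 1.08 and 1.19 RPKM at 0 h, then 2.06 and 73.8 at 1 h, 373.5 and 420.2 at 4 h, with 71.1 and 3.28 at 24 h. All later libraries exceeded the 0 h libraries, but the 24 h mean of 37.2 ± 47.9 RPKM (SD, n = 2) came almost wholly from library 1. The gene g4050 had 4.02 and 4.70 RPKM at 0 h, then 11.9 and 311.8 at 1 h, 924.7 and 819.2 at 4 h, with 132.3 and 20.01 at 24 h. Its 24 h library 2 was still above both 0 h libraries, so it differed from g4952 mainly in keeping a clearer rise there. In both genes the 24 h mean was far below the 4 h mean, by a log2 ratio of -3.38 in g4952 and -3.50 in g4050. The gene with the widest gap between the 24 h libraries was g8135, a model of 3 coding exons without a start codon that begins at the first base of scaffold01103 (1 to 1390, plus strand). It had 0.215 and 0.125 RPKM at 0 h, then 0.101 and 15.3 at 1 h, 50.1 and 72.8 at 4 h, with 18.1 and 0.111 at 24 h. Its 0 h level rested on 5 and 4 reads, and 24 h library 2 was no higher than 0 h.

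Other members of this group were higher at 24 h than at 4 h by their means. Of the 11 members with a higher mean at 24 h, 6 were held in 24 h library 1 alone and 5 in both libraries. Over all tested genes the median log2 ratio of the 24 h mean to the 4 h mean was 0.06, beside -0.36 over the members. A higher 24 h mean was thus the more common case among all tested genes. The rule used both means. The gene g7990 (3 coding exons, coding length 363 bp, no stop codon, plus strand of scaffold01081, 2386 to 3516) had 558.7 and 332.4 RPKM at 0 h, then 545.6 and 3280 at 1 h, 1418 and 908.5 at 4 h, with 4549 and 345.3 at 24 h. The gene g1608 (6 coding exons, coding length 1071 bp, minus strand of scaffold00132, 11927 to 14010) had 10.5 and 7.002 RPKM at 0 h, then 6.85 and 71.6 at 1 h, 20.4 and 17.4 at 4 h, with 74.9 and 8.49 at 24 h. In both genes 24 h library 2 lay within the 0 h range, and 1 h library 1 did not exceed it. Their highest libraries were 24 h library 1 and 1 h library 2, with the 4 h libraries in between. The log2 ratio of the 24 h to the 0 h mean was 2.45 for g7990 and 2.13 for g1608. Without 24 h library 1 it was -0.37 and -0.042.

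The gene g4709 fell narrowly in the same group, since its 24 h library 2 missed the mark by little. It has 3 coding exons and a coding length of 1005 bp on the minus strand of scaffold00629 (710771 to 713754). It had 13.6 and 17.5 RPKM at 0 h, then 124.7 and 602.0 at 1 h, 2818 and 2486 at 4 h, with 247.5 and 174.8 at 24 h. The libraries after 0 h did not overlap those at 0 h at any time, and the lowest of its 4 h and 24 h libraries was 10.02 times the highest 0 h library, the widest such separation among the members. It also lost most from 4 h to 24 h, at a log2 ratio of -3.64, and held 50.2% of its 4 h log2 ratio.

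The 10 members held in 24 h library 2 alone mirrored the larger group. In 7 of these 10, 1 h library 1 was at least as high as 1 h library 2, and in 4 of them 24 h library 1 was no higher than the highest 0 h library. Their median log2 ratio was 0.45 in 24 h library 1 and 1.54 in 24 h library 2, and it was 1.11 and 0.67 in 1 h libraries 1 and 2.

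The member with the highest mean RPKM at 24 h, g7783 (3 coding exons, coding length 951 bp, minus strand of scaffold01012, 2626639 to 2628927), was among these 10. Its level was 2302 and 2308 RPKM at 0 h, then 3762 and 2902 at 1 h, 6710 and 6248 at 4 h, with 3286 and 4762 at 24 h. All 6 later libraries lay above the nearly equal 0 h libraries, and the 24 h libraries lay below both 4 h libraries. Its share of assigned reads was 0.527% and 0.528% in the 0 h libraries, 1.54% and 1.43% in those of 4 h, and 0.752% and 1.09% in those of 24 h. All 72 members held 1.07% and 1.19% of assigned reads in the 0 h libraries, 1.81% and 2.69% in those of 1 h, 4.85% and 4.48% in those of 4 h, and 2.87% and 2.20% in those of 24 h, so g7783 alone was a large part of their total.

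The gene g7279 (4 coding exons, coding length 1065 bp, plus strand of scaffold01003, 1669032 to 1670706) had 3.08 and 6.70 RPKM at 0 h, then 22.02 and 81.8 at 1 h, 305.3 and 261.4 at 4 h, with 34.1 and 46.4 at 24 h. The lowest of its 4 h and 24 h libraries was 5.09 times its highest 0 h library. Its course was close to that of g4709: a sharp peak at 4 h, a return of most of the rise by 24 h, and no overlap with 0 h in any later library.

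**Figure D2:**
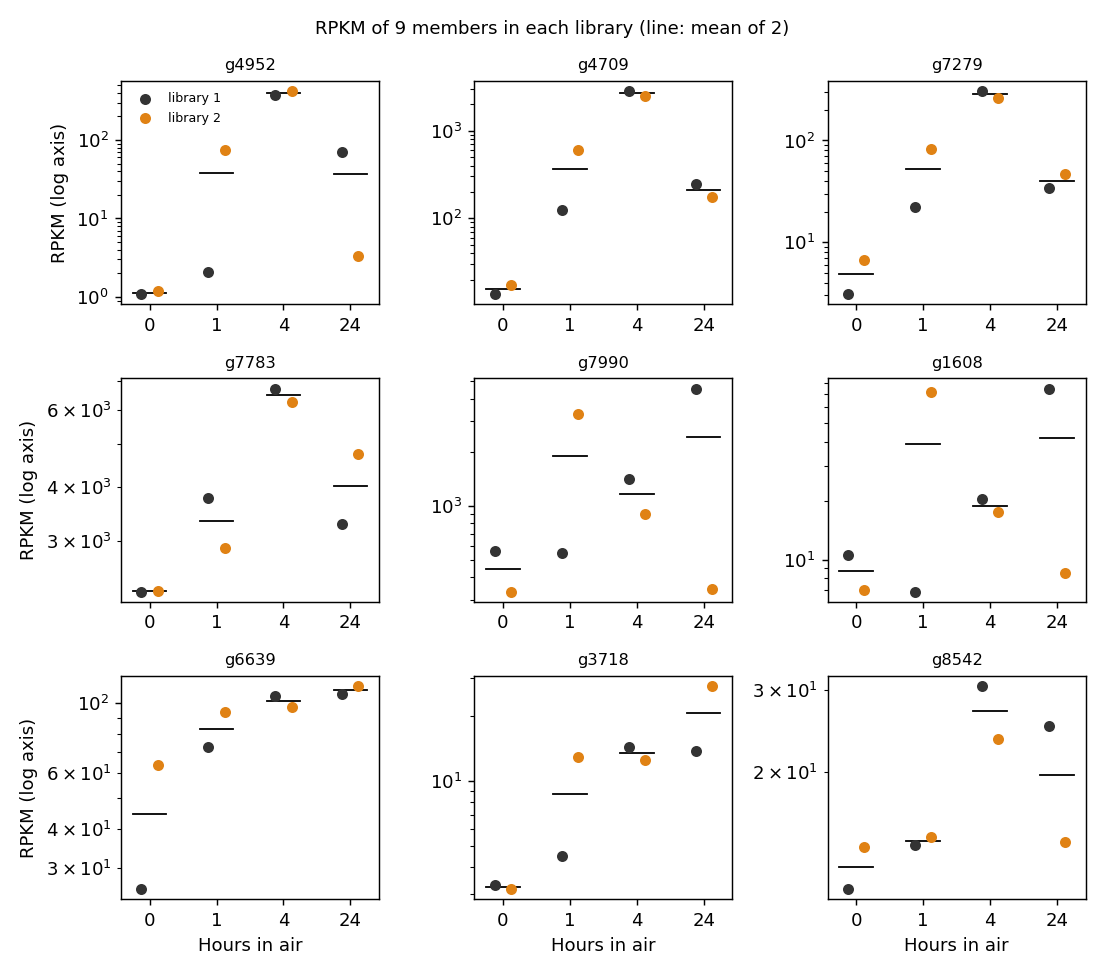
RPKM on a log axis against hours in air for 9 members, with library 1 in black, library 2 in orange and a line at the mean of the 2 libraries. In g4952, g7990 and g1608 the libraries at 1 h and at 24 h lie far apart in opposite order. In g7990 and g1608, 24 h library 2 lies within the 0 h range, while g4952, g4709 and g7279 stay above 0 h in every later library.

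The 1 h libraries were not used by the rule, but the comparison with 0 h shares the 0 h libraries with it. All 72 members had a 1 h mean above the 0 h mean, as had 128 of the 135 receding genes and 40.7% of all tested genes. Both 1 h libraries lay above both 0 h libraries in 58 of the 72 members (80.6%), in 65 of the 135 receding genes (48.1%) and in 13% of all tested genes. The difference between held and receding genes was not tested. The median log2 ratio to the 0 h mean was 0.52 in 1 h library 1 and 0.96 in 1 h library 2 over the members, 0.36 and 0.59 over the receding genes, and -0.10 and -0.09 over all tested genes. The 1 h log2 ratio was at least 50% of the 4 h ratio in 56 of the 72 members (77.8%) and in 14 of the 135 receding genes (10.4%). This share divides by the 4 h ratio, which the rule used. That ratio had a median of 1.20 in the members and 1.59 in the receding genes. A count over all tested genes is not given here, so the 56 and the 14 are not read as a trait of held genes. The libraries of 1 h and 24 h also resembled each other across all genes, as given above, and the part of this in the held genes' 1 h levels was not tested.

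No member passed the test at 1 h. In limma, a linear model fitted to all tested genes, 0 of the 72 were called at an adjusted p under 0.05, as were 0% of all tested genes, and voom, which weights read counts recovered from the RPKM, called 0 members and likewise 0% of all tested genes. An unadjusted p under 0.05 was reached in limma by 27 of the 72, all higher at 1 h, beside 2.14% of all tested genes in that direction. In voom it was reached by 39 in either direction, beside 8.86%. The lowest adjusted p among the members was 0.193 in limma, for g9498, chosen after its values were seen. Its log2 fold change at 1 h was 1.32 (SE 0.21), and both 1 h libraries were higher than both 0 h libraries.

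The members at either end of the ranking by the ratio of the 1 h mean to the 0 h mean were as follows. The highest ratios at 1 h were those of g4709 and g4050, whose values stand above. In limma their log2 fold changes at 1 h were 4.07 (SE 0.66, adjusted p = 0.253) and 3.57 (SE 1.53, adjusted p = 0.490), with a 1 h library 2 far above library 1 in each. The lowest were those of g6058 and g8542. The gene g8542 (6 coding exons, coding length 639 bp, plus strand of scaffold01168, 798358 to 800481) had 11.2 and 13.7 RPKM at 0 h, then 13.9 and 14.4 at 1 h, 30.6 and 23.5 at 4 h, with 25.1 and 14.1 at 24 h. Its 1 h libraries lay just above the higher 0 h library, and its 24 h library 2 stood at the 1 h level. In 7 members the 1 h mean exceeded the 4 h mean, and in 51 both 1 h libraries lay below both 4 h libraries, beside 17.1% of all tested genes. For the first of these counts the share of all tested genes is not given here, and the rule used the 4 h mean.

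**Figure D3:**
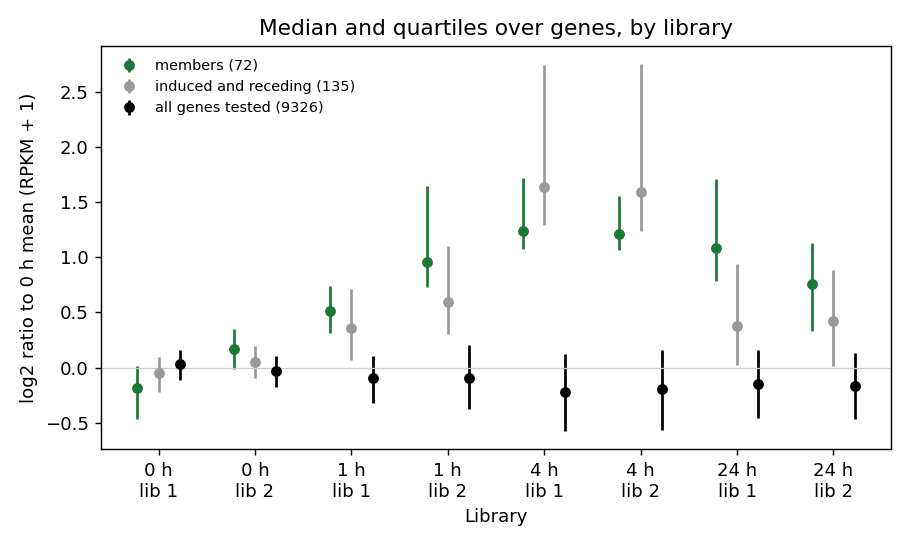
Median (point) and quartiles (bar) over genes of the log2 ratio to the 0 h mean in each library, for the 72 members, the 135 receding genes and the 9326 tested genes. The members lie above the receding genes in both 1 h and both 24 h libraries and below them in both 4 h libraries, and the tested genes as a whole lie slightly below 0 after 0 h.

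In limma, 31 of the 72 members were called higher at 4 h against 0 h, where 2.16% of all tested genes were, and 0 of 72 were called at 24 h, where 0% were. At an unadjusted p under 0.05 limma gave 61 of the 72 higher at 4 h, beside 7.11% of all tested genes, and 42 higher at 24 h, beside 4.12%. In voom 33 were called higher at 4 h, beside 3.28%. At 24 h voom called 0 members and 0% of all tested genes, while 52 members had an unadjusted p under 0.05, beside 14.7%. These contrasts chose the members, so the counts describe how many of the chosen changes stood out from the spread between libraries. Other fits moved these counts, but the calls of all genes and of the members did not always move to a like degree. The main fit called 201 genes and 31 members higher at 4 h. After scaling by a trimmed mean of log ratios, limma called 314 genes and 36 members. With the replicate number as a block it called 141 genes and 20 members. Without 4 h library 1 limma called 1 member higher at 4 h, beside 0.172% of all tested genes, and without 4 h library 2 it called 1, beside 0.182%. Without 0 h library 1 it called 6, beside 0.44%. In a fit of the 0 h and 4 h libraries alone it called 56, beside 4.4%.

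The gene that kept its call at 4 h in each of the 15 fits was g9498, a model of 6 coding exons with neither a start nor a stop codon that begins at the first base of scaffold01220 (1 to 2350, plus strand). It had 66.8 and 65.4 RPKM at 0 h, then 159.9 and 173.8 at 1 h, 423.7 and 428.0 at 4 h, with 154.4 and 216.6 at 24 h. The libraries agreed closely at 0 h, 1 h and 4 h, and no later library came near the 0 h level. The 4 h mean was 6.44 times and the 24 h mean 2.80 times the 0 h mean.

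From 4 h to 24 h no member was called in limma in either direction, where 0.322% of all tested genes were called higher and 0.375% lower, and voom called 0 of the 72, where it called 0.354% of all tested genes in either direction. At an unadjusted p under 0.05 there were 10 members in limma, beside 12.6% of all tested genes, and 10 in voom, beside 12.7%. The rule favours members that stay level, so this count describes the choice. The 24 h libraries lay below both 4 h libraries in 38 members, beside 18.3% of all tested genes, overlapped them in 33, beside 52.4%, and lay above them in 1, beside 29.2%. The lowest adjusted p was 0.058 in limma, for g9498, which was lower at 24 h by a log2 fold change of -1.21 (SE 0.21).

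The list depended on how libraries were scaled. Over all tested genes the median log2 ratio to 0 h was -0.20 at 4 h and -0.14 at 24 h in the deposited RPKM. Scaling by a trimmed mean of log ratios brought these medians to 0.02 and near 0, raised the members' medians from 1.20 to 1.43 at 4 h and from 0.97 to 1.10 at 24 h, and gave 182 genes under the same rule, the 72 among them. Without 0 h library 2 the rule gave 241 genes, of which 65 were members, and without 0 h library 1 it gave 61, of which 38 were members. In 28 of the 72 members 0 h library 2 was at least 1.5 times library 1 on the scale of RPKM + 1, beside 7.27% of all tested genes, and in 4 the reverse held, beside 9.61%.

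Gene structure, which the rule did not use, was close to that of other genes but on the compact side. The median coding length was 798 bp in the members, 978 bp in the receding genes and 1038 bp over all 10283 genes. The median number of coding exons was 6, 7 and 7, and the median gene span was 2292, 2734 and 3045 bp. Members with 15 or more coding exons numbered 6 of 72 (8.33%), beside 16.1% of all genes, and 22 of 72 (30.6%) had a coding length under 600 bp, beside 22.5%. Introns took a median of 55.3% of the span in members and 56.4% over all genes. Complete models with a start and a stop codon were 62 of 72 (86.1%), as were 86.6% of all genes, and 2 members had a single coding exon. No test was made of these differences. A threshold in RPKM per span also sets which genes reach 10 RPKM, and the receding genes met the same level and size thresholds.

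The members were spread over the assembly. They lay on 45 of the 1230 scaffolds with measured genes, and 18 scaffolds held 2 or more, with at most 5 on scaffold00012, which holds 474 genes. Just 2 pairs of members were direct neighbours, those given above. The members had 124 direct neighbours that were not members, of which 6 were receding genes, beside 135 of all 10283 genes. The 6, named after their values were seen, follow with their log2 ratios at 4 h. They were g4953 (3.64) beside g4952, g4049 and g4051 (5.38 and 5.21) on either side of g4050, and g4708 (1.55) beside g4709. The others were g1921 (1.36) beside g1920 and g7784 (2.06) beside g7783. The median log2 ratio of all 124 neighbours was -0.19 at 4 h and -0.08 at 24 h, beside -0.18 and -0.12 over all genes. A neighbour transcribed in the opposite direction from a start less than 1000 bp away was found for 32 members (44.4%), beside 39.6% of all genes, and in none of these close head-to-head pairs were both genes members. Within a distance of 20000 bp 1 further pair of members lay on a scaffold, g1605 and g1608, named after the distances were seen, 4906 bp apart with 2 genes between them. The gene g1605 (5 coding exons, plus strand of scaffold00132, 5146 to 7020) had 259.5 and 234.7 RPKM at 0 h, then 276.4 and 563.6 at 1 h, 775.7 and 724.7 at 4 h, with 509.5 and 546.9 at 24 h. It was held evenly in both 24 h libraries, unlike g1608.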

How the data were processed

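Total RNA was extracted with TRIzol, and sequencing libraries were built with Illumina's TruSeq RNA kit, per the labels' protocols. The deposited table gives RPKM values for each library, per the file headers. Alignment and counting tools named by the submitters' processing notes are TopHat and HTSeq, without versions. The gene models and the score of each model are AUGUSTUS predictions, per the file headers. Multiplying each deposited RPKM by the distance from gene start to end and by a total solved for each library gave whole reads within 0.01 for 100% of values, so RPKM refers to the full span.

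The members and the rule for named genes were chosen with earlier results of these data known. The named genes were the largest, highest, lowest or closest members for level, change, library gap and position, up to 2 each way, besides those just inside and outside a threshold. Python 3.11.15 and limma 3.58.1 in R 4.3.3 were used. limma was fitted to log2(RPKM + 1) of all 8 libraries in 4 groups, with an intensity trend, robust moderation and 4 residual degrees of freedom, two-sided with Benjamini-Hochberg adjustment over 9326 genes. The script was tested on simulated data. Settings varied were pseudocount, low-value filter, scaling (a mean of log ratios trimmed by 30%, and by 5% of levels, at each end), the test (voom), the block, the groups and each library. p-values measure the spread between 2 libraries a time. Replicates differed far beyond counting noise (chi-square of 20.2 to 216 per degree of freedom).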

Additional observations from a re-analysis of the deposited data

How the results depend on the processing

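Counts depended most on single libraries. Leave-one-out fits called 16 to 354 genes and 1 to 42 members higher at 4 h. They called 0 to 1 members at 24 h (g4709, or g5059 without 24 h replicate 1), 0 to 1 at 1 h (g4709, without 1 h replicate 1) and 0 to 2 between 4 h and 24 h (g4709 and g7279). Where 1 library remained at a time, its spread was taken from the other groups. The rule gave 61 to 241 genes without 1 library, 182 after trimmed-mean scaling and 29 when each 24 h library had to hold the rise alone. Other pseudocounts and level thresholds gave 63 to 89. At 4 h, 314 genes were called higher after trimmed-mean scaling, 306 by voom and 410 with the compared groups alone, which called 56 members at 4 h and 1 at 24 h, g4709. The median 1 h log2 ratio of the members ran from 0.52 to 1.25 over leave-outs, the highest without 0 h replicate 2. With the replicate number as a block (replicate block), 20 members and 141 genes were called higher at 4 h, 0 members at 1 h, at 24 h and between 4 h and 24 h. Deviations of same-numbered libraries correlated at -0.73 between 1 h and 24 h, and at 0.01 to 0.35 between the other times. The numbers were therefore not taken as pairs. Whether the numbers were crossed at 1 h or at 24 h was not tested. Of 14 named members, the 24 h log2 ratio turned without 24 h replicate 1 in g7990, g1608, g8135 and g1425, which ran over leave-outs from -0.37 to 3.35, from -0.042 to 2.96, from -0.074 to 4.03 and from -0.13 to 1.91, and it kept its sign in the other settings. The causes were not tested. The 0 h level of g8135 rested on 5 and 4 reads. With 2 libraries a time, a missed call does not show that levels were equal.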
